A study of Mus musculus with 10 samples.

Results

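The 6 genes of phosphodiesterase 6 (PDE6), the cGMP-hydrolysing enzyme of photoreceptors, were examined in 10 mouse retinal RNA libraries. The members were taken by name: Pde6a, Pde6b, Pde6g, Pde6c, Pde6h and Pde6d. All 6 were present among the 11702 genes of the gene table, and they were represented by 19 of the 275112 transcripts of the transcript table, 18 of which had a count above 0 in at least 1 library.

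In darkness, cGMP holds the cation channels of the photoreceptor outer segment open. Light activates an opsin, the opsin activates transducin, and transducin relieves PDE6 of its inhibitory subunits, so that cGMP is hydrolysed and the channels close. In rods the catalytic core is a heterodimer of the products of Pde6a and Pde6b, held inactive by the small inhibitory subunit from Pde6g. In cones the catalytic core is a homodimer of the Pde6c product, and Pde6h encodes the cone inhibitory subunit. Pde6d encodes a carrier that binds the lipid tails of PDE6 and of other prenylated proteins, and it is expressed in many cell types. The rd10 mouse carries a missense mutation in Pde6b and loses its rods, and later its cones, after birth.

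Libraries were made from polyA RNA of female retinas in 3 groups. The WT.F.DMSO group (W1 to W4, n = 4) carried the WT genotype and received the vehicle DMSO. The rd10.F.DMSO group (D1 to D3, n = 3) and the rd10.F.HAL group (H1 to H3, n = 3) were rd10 animals of the strain B6.CXB1-Pde6brd10/J, injected with DMSO or with halofantrine, an antimalarial drug. All animals received intravitreal injections of 1 μL at P10 and P24, with halofantrine at 20 μM, and retinas were collected at P36. The mutation is present in every cell of the rd10 animals, so no promoter or Cre limits it. By the labels, batch 2 consists of D3, H2 and H3 and holds no WT library, and the other 7 libraries form batch 1. The labels do not say what a batch is. The sample titles also carry set tags, with 1 tag for W1 to W3, another for W4, a further tag for D1, D2 and H1, another for H2 and H3 and a separate tag for D3. WT and rd10 libraries thus never share a tag, and in batch 2 the tag and the injection cannot be told apart. They do not say either whether a library holds 1 retina or a pool, so the p-values measure the spread between these libraries.

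Total gene counts were 15512212 to 38160436 per library, with D3 the shallowest. The retinal identity of the samples was checked on marker genes, using CPM (counts relative to the library total, scaled by the TMM method) over the 10 libraries, summed over each list. The 10 rod reference genes summed to 68008 to 71827 CPM in W1 to W3, to 3314 to 10002 CPM in the 6 rd10 libraries and to 2568 CPM in W4. The 8 cone reference genes summed to 1848 to 1967 CPM in W1 to W3 and to 1734 to 2261 CPM in rd10, with W4 below both ranges at 1704 CPM. W4 therefore goes against its label in the rod genes. Its sums in other lists, 9121 CPM for Muller glia, 1005 for gliosis, 215 for microglia, 2675 for bipolar and 2237 for amacrine and ganglion genes, lay above the ranges of W1 to W3 given next and, apart from gliosis, within those of rd10. The name "library labelled WT W4" is used for it, and results are given with it and without it. The 8 Muller glia genes summed to 4344 to 4501 CPM in W1 to W3 against 7582 to 9222 CPM in rd10. The 8 gliosis genes summed to 248 to 281 against 1115 to 1305 CPM, and the 7 of 10 microglia genes that were listed summed to 53.6 to 59.3 against 202 to 243 CPM. The 8 bipolar genes (1429 to 1517 against 2352 to 2847 CPM) and the 8 amacrine and ganglion genes (1409 to 1514 against 1867 to 2255 CPM) were also higher in every rd10 library. Pigment epithelium genes (5 of 8 listed) were at 44.8 to 279 CPM in W1 to W3 and 120 to 419 CPM in rd10, lens genes (2 of 7 listed) at 1.21 to 3.97 and 0.18 to 18.6 CPM, and blood genes (3 of 5 listed) at 34.2 to 60.4 and 11.8 to 96.5 CPM. The part that these shifts play in the PDE6 values was not tested. In whole retina, fewer cells of a type and less RNA per cell cannot be told apart.

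The first comparison asked how PDE6 expression differed between rd10 and WT retinas. The mean levels of the 3 rod genes in rd10 were 8.47% to 11.8% of those in W1 to W3, whereas the cone catalytic gene Pde6c was higher, the cone inhibitory gene Pde6h was close to its WT level and Pde6d was lower by a little more than 1 on the log2 scale. The plot of the PDE6 levels by library shows these 3 patterns.

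**Figure D1:**
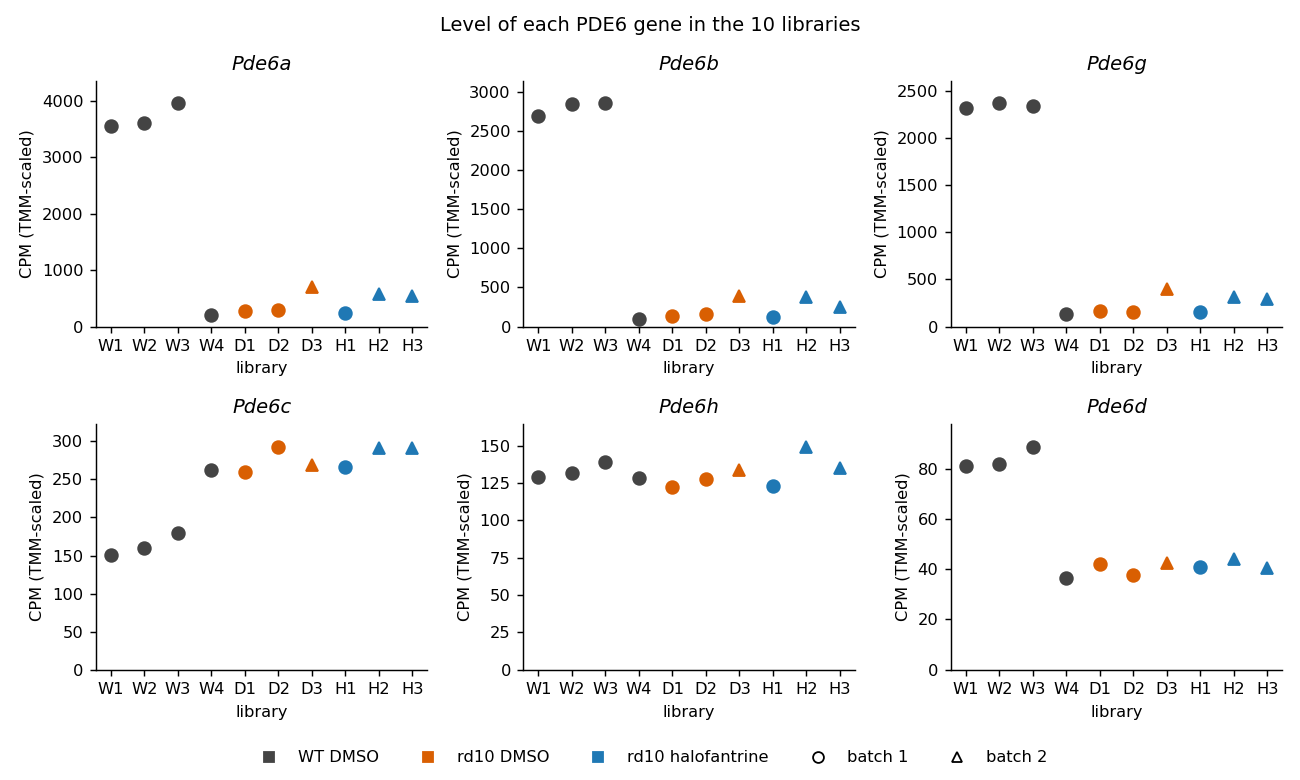
CPM after TMM scaling (y axis, linear from 0, own scale per gene) of each PDE6 gene in each library (x axis). Colours mark the groups, circles batch 1 and triangles batch 2, and each point is 1 library. Pde6a, Pde6b and Pde6g are at 2317 CPM or more in W1 to W3 and at 694 CPM or less in the other 7 libraries.

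Pde6b, the gene mutated in rd10, measured 2699, 2850 and 2855 CPM in W1 to W3 and 93.1 CPM in the library labelled WT W4. It was at 133, 157 and 387 CPM in D1 to D3 and at 125, 373 and 249 CPM in H1 to H3. All 6 rd10 libraries lay below W1 to W3, while W4 lay below all 6 rd10 libraries. Of all 11696 genes compared, 63.7% did not overlap between the 6 rd10 libraries and W1 to W3, lying wholly above or wholly below, so the separation of Pde6b, and of Pde6a, Pde6g, Pde6c and Pde6d below, is not particular to these genes. The mean of the rd10 libraries was 237 ± 119 CPM (SD, n = 6), which is 8.47% of the mean of 2801 ± 88.9 CPM (SD, n = 3) in W1 to W3.

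Pde6a, which encodes the other catalytic subunit of rods, measured 3562, 3614 and 3955 CPM in W1 to W3 and 208 CPM in W4. It was at 271, 301 and 694 CPM in D1 to D3 and at 249, 576 and 545 CPM in H1 to H3. The rd10 mean was 11.8% of the mean of W1 to W3, and the groups again overlapped only through W4, as most genes did.

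Pde6g, which encodes the rod inhibitory subunit, measured 2317, 2367 and 2337 CPM in W1 to W3 and 134 CPM in W4. It was at 164, 154 and 394 CPM in D1 to D3 and at 152, 318 and 292 CPM in H1 to H3. The rd10 mean was 10.5% of that of W1 to W3. For each of the 3 rod genes, W4 was the lowest of the 10 libraries.

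With all 4 WT libraries in the fit, the log2 fold change of rd10 DMSO against WT was -2.74 ± 0.94 (SE) for Pde6a, -3.23 ± 1.08 for Pde6b and -2.91 ± 0.94 for Pde6g. The adjusted p was 0.19 for each of these genes in edgeR's quasi-likelihood test. The same test called 0% of the 11698 genes at an adjusted p under 0.05, or 0 genes, with 3108 genes at an unadjusted p under 0.05 and 589 genes called by DESeq2. In DESeq2, Pde6b and Pde6g were among the called genes, each with an adjusted p of 0.047. Without W4, the fold changes were -3.13 ± 0.37, -3.63 ± 0.41 and -3.29 ± 0.37, with adjusted p-values of 0.00027, 0.00023 and 0.00023 in edgeR. In that fit 62.2% of all genes were called, 32.3% as higher in rd10 and 29.9% as lower, so a call was common among all genes. The median log2 fold change over all genes was -0.01.

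Because batch 2 holds no WT library, the comparison was repeated in batch 1 alone without W4. D1 and D2 then differed from W1 to W3 by -3.69 for Pde6a, -4.26 for Pde6b and -3.87 for Pde6g on the log2 scale. These values were larger than with D3 in the group. D1 and D2 still have another set tag than W1 to W3, so set and genotype cannot be told apart in batch 1 either.

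The halofantrine group was compared with the same WT libraries, so the 2 comparisons share their controls. With all 4 WT libraries, rd10 HAL against WT gave -2.63 ± 0.92 for Pde6a, -3.09 ± 1.07 for Pde6b and -2.82 ± 0.92 for Pde6g (SE), with an adjusted p of 0.13 for each in edgeR. Only 1 gene, or 0.00855%, was called in that fit, against 4050 genes at an unadjusted p under 0.05. Without W4 the values were -3.02 ± 0.28, -3.49 ± 0.34 and -3.20 ± 0.25, with adjusted p-values of 1.8e-05, 2.2e-05 and 6.1e-06, where 35.7% of all genes were called as higher and 36.2% as lower. DESeq2 called all 3 rod genes, and Pde6c, also with W4 in the group, among 2221 of 11699 genes that it called.

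**Figure D2:**
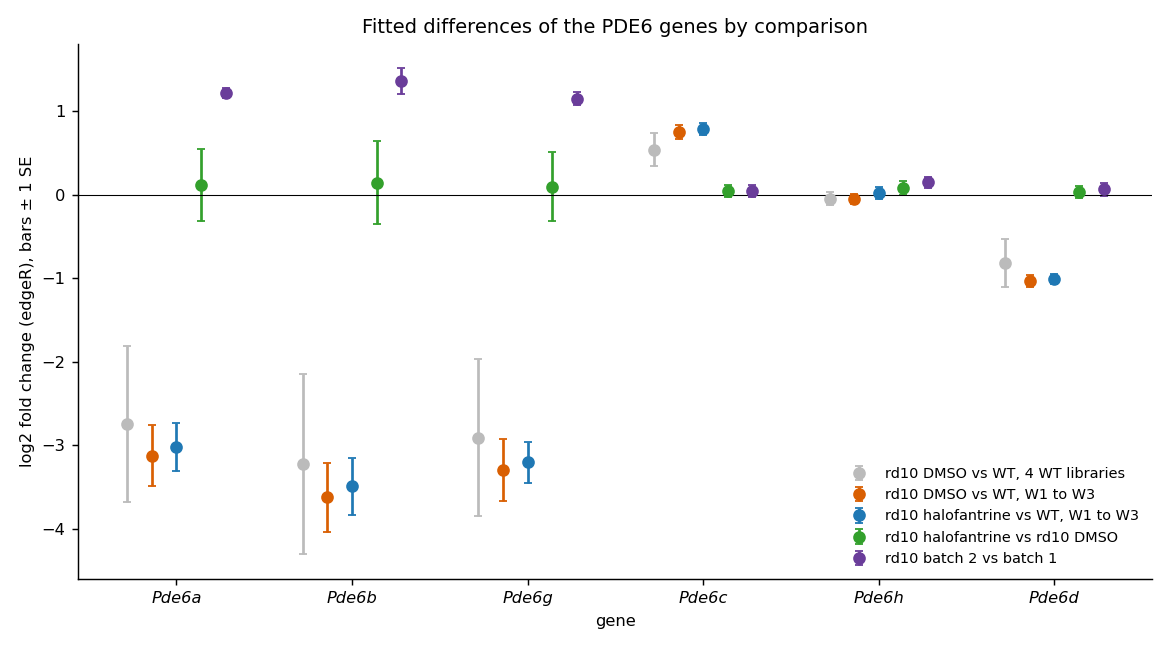
Log2 fold changes from edgeR (points) with 1 SE on each side (bars) for the 6 PDE6 genes (x axis) in 5 fits, marked by colour. The grey fits with W4 have wider bars than the fits on W1 to W3, and the 3 rod genes are the only members with values under -2.

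The genes downstream and upstream of rod PDE6 were described from a list of 18 other rod phototransduction genes. Without W4, 18 of 18 were lower in rd10 DMSO than in WT by edgeR, against 29.9% of all genes, with a median log2 fold change of -2.99 where all genes had -0.01. The lowest was Guca1b (-4.47 ± 0.33 SE), which encodes a guanylate cyclase activator. The smallest differences were in Rgs9 (-1.91 ± 0.31) and Gnb5 (-1.51 ± 0.20), 2 genes of the complex that switches transducin off. The 3 rod PDE6 genes, at -3.13 to -3.63, lay within the range of this list. With W4 in the fit, 0 of the 18 genes were called and their median was -2.63.

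The promoter of Pde6b is shown as that of the gene mutated in rd10, and that of Pde6h as that of a cone member. Both run from 250 bases before to 50 bases after the start site of the RefSeq gene, 5′ to 3′ on the gene's strand. Capitals mark matches to TGCTGA, a half-site of the rod factor Nrl, and to TAATC, the core of the motif of the photoreceptor factor Crx, each searched on both strands. The 2 motifs do not overlap in these windows.
Pde6b, chr5:108388123-108388422, plus strand, GRCm38.p6: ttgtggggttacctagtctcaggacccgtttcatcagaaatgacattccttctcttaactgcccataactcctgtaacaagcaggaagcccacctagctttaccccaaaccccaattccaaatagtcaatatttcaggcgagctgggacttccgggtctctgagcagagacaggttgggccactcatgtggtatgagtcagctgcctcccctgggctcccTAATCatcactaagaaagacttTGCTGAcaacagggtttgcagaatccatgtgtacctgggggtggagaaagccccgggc
Pde6h, chr6:136954273-136954572, plus strand, GRCm38.p6: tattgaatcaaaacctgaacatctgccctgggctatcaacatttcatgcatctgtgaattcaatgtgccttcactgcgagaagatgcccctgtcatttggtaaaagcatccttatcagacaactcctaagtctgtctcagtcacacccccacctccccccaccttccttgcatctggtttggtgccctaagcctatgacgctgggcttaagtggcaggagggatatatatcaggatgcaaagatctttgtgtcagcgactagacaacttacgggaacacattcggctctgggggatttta
In Pde6b, TGCTGA began 8 bases and TAATC 30 bases before the start site. Neither run of letters was found in the window of Pde6h, nor in that of Pde6d (chr1:86582736-86583035, minus strand). TGCTGA occurred in 19.5%, TAATC in 21.9% and both in 4.5% of the 32544 promoter windows of the table. These matches are descriptions of the sequence, and their relation to the levels was not tested. Of the 6 members 3 matched the promoter table by symbol, so Pde6a, Pde6g and Pde6c are only named.

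From a list of 7 photoreceptor transcription factors, 6 were lower and 1 was higher in rd10 DMSO than in W1 to W3 by edgeR. Nrl, the factor that sets rod fate, was at -3.93 ± 0.43 (log2, SE) and Nr2e3, which represses cone genes in rods, at -2.87 ± 0.53. Crx, which acts in both rods and cones, was at -1.90 ± 0.16. The factor that was higher was Rxrg (0.49 ± 0.15), a nuclear receptor of cones, and the least changed was Otx2 (-0.42 ± 0.07). Their background shares are the 29.9% of all genes called lower and the 32.3% called higher. With W4 in the fit 0 of the 7 were called.

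Of the 3 ratios between rod genes, only Pde6b over Pde6a passed at an adjusted p under 0.05, and only without W4. Pde6b counts were 75.8%, 78.9% and 72.2% of Pde6a counts in W1 to W3, and 44.8% in W4. They were 48.9%, 52.3% and 55.7% in D1 to D3 and 50.2%, 64.7% and 45.8% in H1 to H3. All 6 rd10 libraries lay below W1 to W3, and W4 again lay below all rd10 libraries. The mean log2 ratio was -0.93 ± 0.17 (SD, n = 6) in rd10 and -0.40 ± 0.06 (SD, n = 3) in W1 to W3. The difference of -0.52 had p = 0.012 in an exact two-sided permutation test, the smallest p that 6 against 3 libraries allow (84 splits), and 0.036 after Benjamini-Hochberg adjustment over 3 ratios. W4 was set aside for its rod gene levels, and leaving it out also removed the WT value furthest from the others in this ratio. This p is thus not independent of that choice, and the permutation tests without W4 that follow share this limit. With W4 among the WT libraries the difference was -0.33, with an exact permutation p of 0.10 and an adjusted p of 0.16. In batch 1 without W4 it was -0.58, where 3 against 3 libraries cannot give an exact p below 0.10.

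Pde6b counts were 116.5%, 120.4% and 122.2% of Pde6g counts in W1 to W3, 69.4% in W4 and 80.9% to 117.3% in rd10. This ratio did not pass the test, and H2 lay within the range of W1 to W3. Without W4 the log2 difference was -0.36, with an exact two-sided permutation p of 0.036 and an adjusted p of 0.054. With W4 it was -0.16 (exact permutation p = 0.41, adjusted p = 0.41). For Pde6a over Pde6g the difference was 0.17 without W4 (exact permutation p = 0.060, adjusted p = 0.060). With W4 it was also 0.17 (exact permutation p = 0.024, adjusted p = 0.071), and the rd10 and WT ranges overlapped. These are ratios of counts within each library, so the scaling of the libraries does not enter.

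**Figure D3:**
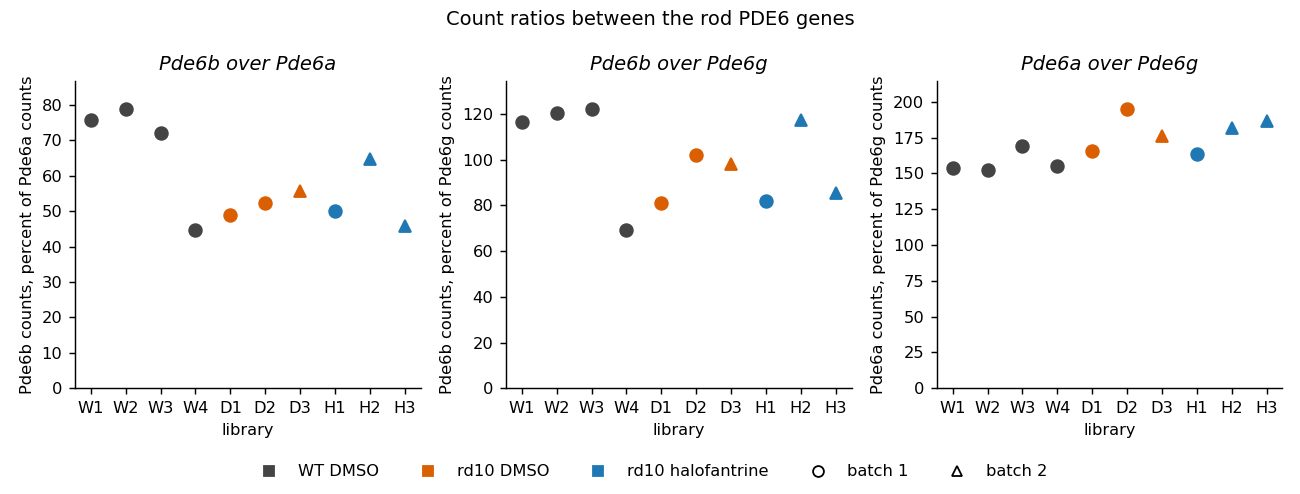
Counts of 1 rod PDE6 gene as a percentage of those of another (y axis, linear from 0) in each library (x axis), with colours for groups, circles for batch 1 and triangles for batch 2. Pde6b over Pde6a is at 72.2% or more in W1 to W3 and at 64.7% or less in the other 7 libraries, whereas Pde6a over Pde6g overlaps between the groups.

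Each member was then set against the mean log2 CPM of reference genes of its cell type. Pde6b was 0.10, 0.16 and 0.09 above the rod reference in W1 to W3, but 0.51 below it in W4 and 0.11 to 0.49 below it in the 6 rd10 libraries. The difference of -0.42 without W4 had an exact two-sided permutation p of 0.012 and an adjusted p of 0.030 over 5 members, while with W4 it was -0.26 (p = 0.13, exact permutation, adjusted p = 0.13). Pde6a and Pde6g did not pass this test without W4, with differences of 0.10 (adjusted p = 0.074, exact permutation) and -0.06 (adjusted p = 0.35). These values depend on how the rod reference was summarised. With the median of the reference genes in place of the mean and without W4, Pde6b differed by -0.08 (adjusted p = 0.57, exact permutation), Pde6a by 0.45 and Pde6g by 0.28 (both adjusted p = 0.020). The lower level of Pde6b relative to Pde6a was seen under both, since the reference cancels between them.

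Per length, using transcript lengths and scaled to a common total per library (TPM), the order of the 6 genes in W1 to W3 was Pde6g at 5174 ± 39.3 TPM (SD, n = 3), Pde6b at 2015 ± 63.7, Pde6a at 1671 ± 96.1, Pde6h at 163 ± 10.3, Pde6d at 149 ± 7.53 and Pde6c at 123 ± 10.7. The ranges of Pde6h and Pde6d overlapped and those of all other neighbours did not. The place of Pde6h depends on how its counts were divided among transcripts that include 1 of 392 and 1 of 5940 bases. In CPM the mean of W1 to W3 was instead lower for Pde6h, at 133, than for Pde6c, at 164. In the 6 rd10 libraries the order of the mean TPM was Pde6g at 664 ± 278 (SD, n = 6), Pde6c at 256 ± 13.6, Pde6a at 241 ± 102, Pde6b at 207 ± 101, Pde6h at 188 ± 25.95 and Pde6d at 89.5 ± 3.88. There the ranges of neighbours in this order overlapped down to Pde6h, except that Pde6g lay above Pde6c in every library, while every Pde6c value lay above every Pde6h value and Pde6d lay below all other members. Per length, Pde6b exceeded Pde6a in W1 to W3 (ratios 1.21, 1.26 and 1.16) but not in D1 to D3 (0.78, 0.83 and 0.88), in H1 or H3 (0.80 and 0.73) or in W4 (0.71), and H2 had a ratio of 1.02.

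The cone members followed another course. Pde6c, the catalytic gene of cones, measured 151, 160 and 180 CPM in W1 to W3 and 263 CPM in W4. It was at 259, 293 and 269 CPM in D1 to D3 and at 266, 291 and 291 CPM in H1 to H3. Every rd10 library and W4 lay above W1 to W3, where 63.7% of all genes likewise did not overlap with rd10, and the rd10 mean was 1.70-fold that of W1 to W3. The log2 fold change of rd10 DMSO against WT was 0.54 ± 0.20 (SE) with all WT libraries (adjusted p = 0.19, edgeR) and 0.75 ± 0.08 without W4 (adjusted p = 0.00021, edgeR). For rd10 HAL against WT it was 0.58 ± 0.20 (adjusted p = 0.13, edgeR) and 0.79 ± 0.07 (adjusted p = 1.7e-05). With library size alone in place of TMM, rd10 DMSO against W1 to W3 gave 0.96, in a fit in which the median of all genes was at 0.19.

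Pde6h, the inhibitory gene of cones, measured 129, 132 and 139 CPM in W1 to W3 and 128 CPM in W4. It was at 123, 128 and 133 CPM in D1 to D3 and at 123, 149 and 135 CPM in H1 to H3, so that the groups overlapped. Its log2 fold change in rd10 DMSO against WT was -0.05 ± 0.08 (SE, adjusted p = 0.66, edgeR) with and -0.05 ± 0.06 (adjusted p = 0.49) without W4. The direction depended on the scaling: with library size alone it was 0.16 without W4 (adjusted p = 0.045, edgeR), below the median of all genes of 0.19 in that fit. In rd10 HAL against WT it was 0.04 ± 0.08 (adjusted p = 0.72, edgeR) with and 0.03 ± 0.07 (adjusted p = 0.76) without W4, and 0.23 (adjusted p = 0.013) with library size alone and no W4.

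The 2 cone genes thus separated from each other. Relative to the cone reference, Pde6c was higher in rd10 by 0.66 without W4 (exact two-sided permutation p = 0.012, adjusted p = 0.030) and by 0.48 with it (p = 0.029, adjusted p = 0.071, exact permutation). For Pde6h the same difference was -0.13 without W4 (exact permutation p = 0.024, adjusted p = 0.040) and -0.12 with it (exact permutation p = 0.019, adjusted p = 0.071). With the median of the reference genes and no W4 it was 0.04 (adjusted p = 0.76, exact permutation). Per length, the ratio of Pde6h to Pde6c was 1.48, 1.41 and 1.12 in W1 to W3, 0.78 in W4 and 0.56 to 0.83 in rd10. This ratio depends on how Pde6h counts were divided among transcripts of very different length. The lowest value was that of D3. There Pde6h-204, of 392 bases, took 8.26% of Pde6h counts and Pde6h-202, of 5940 bases, took 73.7%. The other 9 listed genes of cone phototransduction were mixed, with 4 higher, 2 lower and 3 not called in rd10 DMSO against W1 to W3 by edgeR, beside 32.3% and 29.9% of all genes. Slc24a2, an exchanger of sodium, calcium and potassium, was at 0.81 ± 0.08 (log2, SE) and Gnb3, the cone transducin β subunit, at 0.71 ± 0.08. Opn1sw, the short-wavelength opsin, was at -1.12 ± 0.32, and Arr3, cone arrestin, was not called at -0.02 ± 0.09. With W4 in the fit 0 of the 9 were called.

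Pde6d, the gene of the prenyl-binding carrier, measured 80.9, 81.7 and 88.7 CPM in W1 to W3 and 36.4 CPM in W4. It was at 42.1, 37.8 and 42.4 CPM in D1 to D3 and at 40.8, 44.1 and 40.3 CPM in H1 to H3. All rd10 libraries lay below W1 to W3, at 49.2% of their mean, with 63.7% of all genes not overlapping in the same comparison. The log2 fold change of rd10 DMSO against WT was -0.82 ± 0.29 (SE, adjusted p = 0.19, edgeR) with and -1.03 ± 0.07 (adjusted p = 3.7e-05, edgeR) without W4. For rd10 HAL against WT it was -0.78 ± 0.29 (adjusted p = 0.14, edgeR) and -1.01 ± 0.06 (adjusted p = 1.9e-06).

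Pde6d was considered beside a list of 15 genes for folding, lipid attachment and ciliary delivery of PDE6. In rd10 DMSO against W1 to W3, 11 of the 15 were lower, 0 were higher and 4 were not called by edgeR, where 29.9% of all genes were lower. Unc119, a carrier of lipidated proteins to the outer segment, was at -2.21 ± 0.13 (log2, SE), and Rpgrip1, of the connecting cilium, at -2.14 ± 0.20. Aipl1, the chaperone that PDE6 needs for folding, was at -2.04 ± 0.18, and Arl3, the small GTPase that releases cargo from the Pde6d product, at -1.64 ± 0.07. Rp2, which acts on Arl3, and Unc119b were not called (adjusted p = 0.999 and 0.963, edgeR). The list's median was -0.49, against -0.01 over all genes. With W4 in the fit 0 of the 15 were called, and the median was -0.39.

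Other phosphodiesterases were used as a comparison within the same gene superfamily. Of 18 listed genes 16 were tested, and in rd10 DMSO against W1 to W3, 13 were higher, 2 were lower and 1 was not called by edgeR, where 32.3% of all genes were higher. Pde2a (1.61 ± 0.17, log2, SE) and Pde3b (1.59 ± 0.14) had the largest differences, and Pde8b (-0.72 ± 0.08) and Pde8a (-0.95 ± 0.15) were the ones that were lower. Pde7a was not called at -0.03 ± 0.06. Their median was 0.74. Pde6c, at 0.75, lay close to this median. With W4 in the fit 0 of the 16 were called.

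The second comparison asked whether halofantrine changed PDE6 expression in rd10 retinas. With 3 libraries per group, the log2 fold change of rd10 HAL against rd10 DMSO was 0.12 ± 0.43 (SE) for Pde6a, 0.15 ± 0.49 for Pde6b and 0.10 ± 0.41 for Pde6g. It was 0.04 ± 0.07 for Pde6c, 0.08 ± 0.08 for Pde6h and 0.03 ± 0.08 for Pde6d. No member passed the test, with adjusted p-values of 0.90 to 0.98 in edgeR, and 0% of the 11692 genes were called, or 0 genes, with 557 at an unadjusted p under 0.05 and 3 genes called by DESeq2. The groups overlapped for each member, while 13.1% of all genes did not overlap between them. The intervals are much wider for the rod genes than for the others. Within both groups the levels of the rod genes were higher in the batch 2 libraries than in those of batch 1.

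Halofantrine and batch were unevenly mixed, with 2 DMSO and 1 halofantrine library in batch 1 and 1 DMSO and 2 halofantrine libraries in batch 2. Within batch 1, H1 was below both D1 and D2 for Pde6a, Pde6b and Pde6g, by 0.20, 0.21 and 0.06 in mean log2 CPM. Within batch 2, H2 and H3 were below D3 for the same 3 genes, by 0.31, 0.34 and 0.37. D3 has a set tag of its own there, so that set and injection cannot be told apart in batch 2. Of all genes, 18.0% were lower in the halofantrine libraries in both batches in this way. With batch as a term, the fitted log2 differences of these genes turned to -0.25 ± 0.06, -0.27 ± 0.15 and -0.22 ± 0.08 (SE), and none passed the test (adjusted p = 0.27, 0.38 and 0.27, edgeR). Without D3 the differences without a batch term were instead 0.68 to 0.79 for the 3 rod genes. That fit sets D1 and D2, of batch 1, against H1, of batch 1, and H2 and H3, of batch 2. The direction of the rod members under halofantrine thus changed with the handling of batch and with the library left out. Pde6c and Pde6h had no common direction in the 2 batches, at -0.05 and 0.11 for Pde6c and -0.03 and 0.09 for Pde6h.

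The ratios between rod genes were close in the 2 injected groups, with a difference of 0.02 for log2 Pde6b over Pde6a (SD 0.26 in the halofantrine and 0.09 in the DMSO group, n = 3 each). The exact two-sided permutation p was 0.90 for each of the 3 ratios, where 0.10 is the smallest that 3 against 3 libraries allow. The levels relative to the reference genes differed by -0.14 to -0.07, with adjusted p-values of 0.33 to 0.60 (exact permutation). This design cannot reach an exact p under 0.05, and the smallest p reached was 0.10, for Pde6h.

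**Figure D4:**
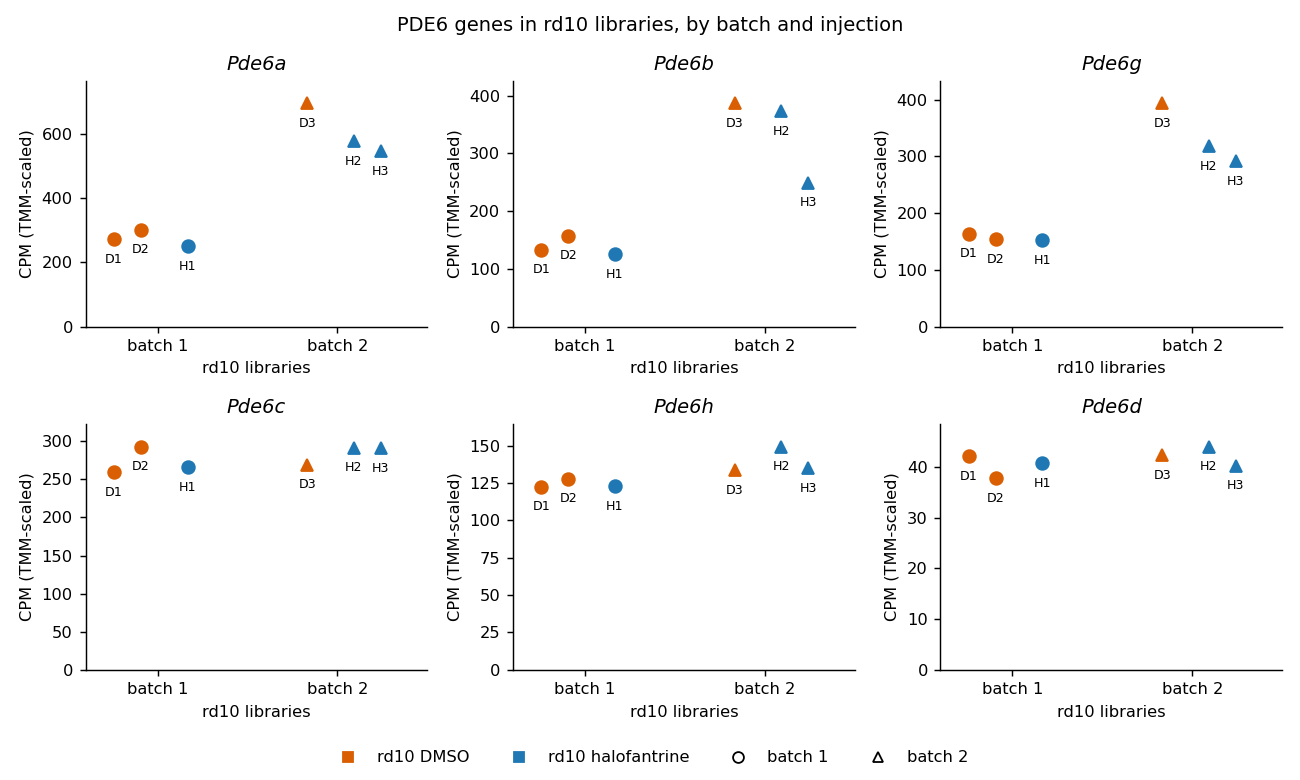
CPM after TMM scaling (y axis, linear from 0) of each PDE6 gene in the 6 rd10 libraries, split by batch on the x axis and by injection in colour, with each point labelled by its library. For Pde6a, Pde6b and Pde6g the batch 2 libraries lie above the batch 1 libraries, and within each batch the halofantrine libraries lie below the DMSO libraries.

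The third comparison was between the 2 batches of rd10 libraries, with the injection as a covariate. The rod members were higher in batch 2. Pde6a was at 274 ± 25.8 CPM (SD, n = 3) in batch 1 and 605 ± 78.4 CPM in batch 2, a 2.21-fold difference. Pde6b was at 138 ± 16.7 and 336 ± 75.5 CPM, a 2.43-fold difference, and Pde6g at 157 ± 6.33 and 334 ± 53.0 CPM, a 2.13-fold difference. The fitted log2 differences were 1.22 ± 0.06 (SE), 1.36 ± 0.15 and 1.15 ± 0.08, with adjusted p-values of 0.00085, 0.0055 and 0.0013 in edgeR. The share of all genes called was 4.63%, with 3.09% called higher in batch 2. That background was unstable, since the 542 genes called became 91 without D3, 2638 without H1 and 212 to 217 without each of the other 4 libraries. The cone members and Pde6d were not called, with 0.05 ± 0.07 for Pde6c (adjusted p = 0.69), 0.15 ± 0.06 for Pde6h (adjusted p = 0.18) and 0.06 ± 0.08 for Pde6d (adjusted p = 0.60, edgeR). The 2 batches did not overlap in Pde6a, Pde6b, Pde6g and Pde6h, as in 27.9% of all genes.

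The counts that follow stand beside the 3.09% of all genes called higher in batch 2. Among the other rod phototransduction genes, 17 of 18 were higher, with a median of 1.07 where all genes had -0.01. Cnga1 (1.53 ± 0.09, log2, SE), which encodes a subunit of the rod cGMP-gated channel, was among the largest, and Guca1b was not called (adjusted p = 0.058, edgeR). Of the transcription factors 3 of 7 were higher, Nr2e3 (1.69 ± 0.11), Nrl (1.54 ± 0.07) and Crx (0.52 ± 0.05). Of the 15 folding and delivery genes 4 were higher, led by Aipl1 (0.69 ± 0.06), then Rpgrip1, Unc119 and Icmt, the methyltransferase of prenylated proteins. Of the 9 cone genes 2 were higher, Opn1sw (1.15 ± 0.12) and Opn1mw (0.35 ± 0.07), and of the 16 other phosphodiesterases 1, Pde10a (0.45 ± 0.07), a share near that of all genes. The blood genes summed to 11.8 to 30.8 CPM in the batch 1 rd10 libraries and to 28.5, 96.5 and 79.6 CPM in D3, H2 and H3, and the Muller glia genes to 8361 to 9222 and 7582 to 8990 CPM. The cone reference genes summed to 1734 to 1868 CPM in batch 1 and 2106 to 2261 CPM in batch 2, and the bipolar genes to 2725 to 2847 and 2352 to 2586 CPM, both without overlap. The part of these lists in the rod differences was not tested. When all 10 libraries entered the fit, the log2 differences of the rod members were nearly the same (1.22, 1.37 and 1.15) but none passed the test (adjusted p = 0.85, edgeR). That fit includes W4, whose rod levels differ from those of W1 to W3, in its estimate of spread, and the part of W4 in the lost calls was not tested. In the fit of the rd10 libraries alone, Pde6b lost its call without D3 (adjusted p = 0.077, edgeR).

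The transcript table showed whether the members changed through single transcripts. Transcripts summed to the gene counts of each member. In rd10 DMSO against WT, 17 member transcripts passed the filter on low counts, and with W4 in the fit 0 of them were called by edgeR, where 0.00165% of all transcripts (1 of 60528) were. Without W4, 11 of the 17 were called, where 15.5% of all transcripts were. These were all tested transcripts of Pde6a, Pde6b, Pde6g and Pde6c, and Pde6d-201. In rd10 HAL against rd10 DMSO 0 were called and 0% of the 61926 transcripts.

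Pde6b was described by 3 transcripts. Pde6b-201, the protein-coding transcript, took 76.8% ± 0.68 of the counts of the gene in W1 to W3 (SD, n = 3) and 77.0% ± 1.56 in rd10 (SD, n = 6). Pde6b-203, annotated with a retained intron, took 20.1% ± 0.72 and 20.1% ± 1.27, and Pde6b-202, also with a retained intron, took 3.09% ± 0.04 and 2.95% ± 0.48. W4 was at 77.9%, 19.8% and 2.30%. The ranges of Pde6b-201 and Pde6b-203 in W1 to W3 lay within those of rd10. The log2 fold changes without W4 were -3.54 ± 0.43 (SE) for Pde6b-201, -3.85 ± 0.30 for Pde6b-202 and -3.62 ± 0.44 for Pde6b-203.

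Of the other rod members, Pde6a-201 took 99.3% to 99.9% of Pde6a counts, and Pde6g-201 took 86.0% to 91.2% of Pde6g counts. Pde6c had 2 coding transcripts and none that dominated, with Pde6c-201 at 45.6% to 48.6% in W1 to W3, 52.9% in W4 and 47.0% to 56.0% in rd10, ranges that overlap. Pde6d-201 took 92.1% to 96.3% of Pde6d counts. In Pde6h, Pde6h-202 took 73.7% in D3 and 55.5% to 61.9% in the other 9 libraries, so the shallowest library stood apart there. Pde6d-205 had no count in any library. These shares come from estimates that divide reads among overlapping transcripts.

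**Figure D5:**
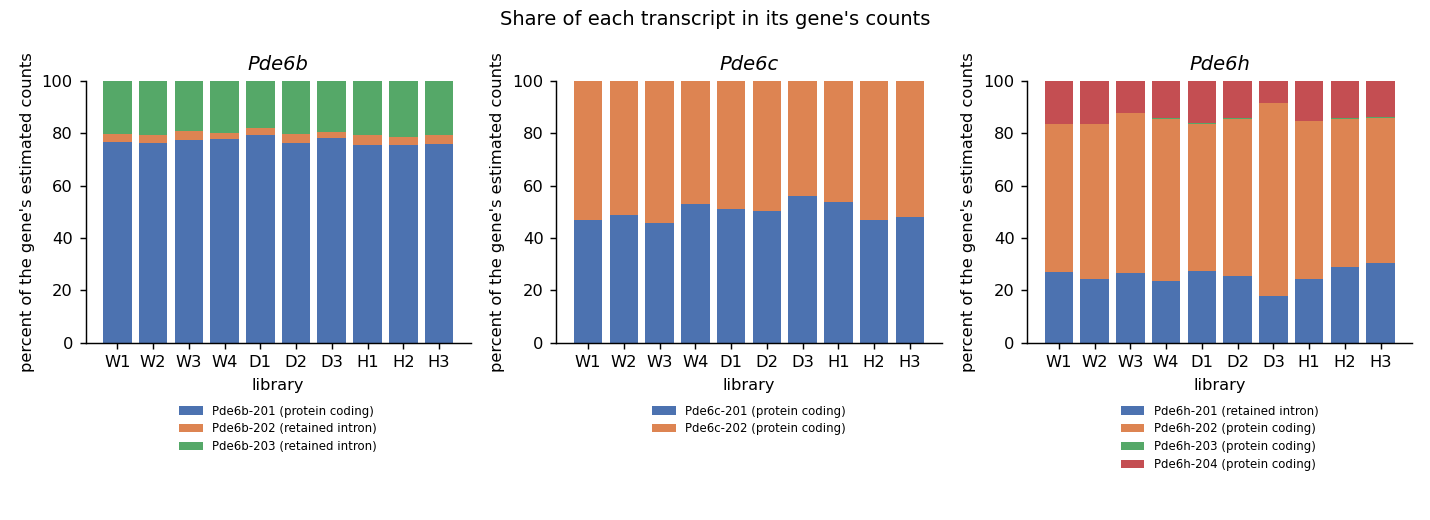
Share of each transcript in the estimated counts of its gene (stacked bars, y axis in percent from 0 to 100) for Pde6b, Pde6c and Pde6h in each library (x axis). Pde6b-201 lies between 75.6% and 79.4% in all 10 libraries, while Pde6h-202 reaches 73.7% in D3.

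The genes whose log2 CPM ran most closely with each member were listed as a description, with no test, since the 10 libraries share the division into WT and rd10. Over the 10 libraries these were Slc24a1 (Pearson r = 0.9997) and A930006I01Rik (0.9990) for Pde6a. For Pde6b they were Wdr17 (0.9991), Lbhd1 (0.9991) and Gnat1 (0.9989), and for Pde6g they were Pex5l (0.9994), Ankrd33 (0.9992) and Bbs7 (0.9990). For Pde6c they were Hey2 (0.9946), Pde1c (0.9902) and Bend6 (0.9894), for Pde6d Slc25a33 (0.9960), Amd1 (0.9954) and Guk1 (0.9951), and for Pde6h Frg1 (0.8912), Kif1bp (0.8899) and Hnrnpk (0.8875). The values of Pde6h were the lowest of these, and the cause was not tested.

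Within the 6 rd10 libraries, where the batches divide the points, the nearest genes were Cnga1 (0.9987), Smc3 (0.9987) and Ankrd33b (0.9981) for Pde6a, Stard7 (0.9991), Wdr17 (0.9980) and Cds1 (0.9969) for Pde6b, and Mrps22 (0.9980) and Cabp4 (0.9971) for Pde6g. They were Itga4 (0.9926), Stk36 (0.9710) and 9930021J03Rik (0.9709) for Pde6c, Commd1 (0.9960), Tmem229b (0.9933) and Lpcat1 (0.9932) for Pde6h, and Bola3 (0.9843), Dapl1 (0.9687) and Spcs1 (0.9626) for Pde6d. Wdr17 was near Pde6b in both sets of libraries. The 3 rod members correlated with each other at r = 0.967 to 0.989 within rd10. Pde6h correlated with them at 0.756 to 0.86, Pde6d at 0.458 to 0.56 and Pde6c at 0.254 to 0.394.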

How the data were processed

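RNA-seq of 10 libraries from female mouse retina was used. Per the labels and the study's methods, the authors made stranded polyA libraries, pseudoaligned reads with Kallisto to Ensembl transcripts (build GRCm39) and imported them with tximport. They deposited estimated counts per transcript and per gene, which were not all whole numbers. The authors' deposited CPM are a signal scaled by 1 factor per library, summing to 943804 to 1127682, and were used only for the check of the members. A table of the authors' own comparison of halofantrine with DMSO, with fold changes and p-values, was not used.

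Estimated counts were rounded, filtered by filterByExpr, scaled by TMM and tested with the quasi-likelihood test of edgeR 4.0.16 (R 4.3.3) with Benjamini-Hochberg adjustment at 0.05. Standard errors came from the F statistic. CPM were scaled by TMM over 10 libraries, log2 CPM used a prior count of 2, and 2 was added to counts in ratios. TPM used GENCODE M21 lengths, which cover 97.4% to 97.7% of transcript counts. Symbols matched 11492 of 11702 identifiers. Promoters are from RefSeq (GRCm38.p6), matched for 3 of 6 members. Other coordinates are not given because the genome builds differ.

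Named genes are the 6 members, the genes with the highest correlation to each (3 over 10 libraries, 3 over the 6 rd10 libraries) and, per list, up to 4 examples, the 2 most and 2 least changed, with other called genes of short lists named after their values were seen. One gene that this rule takes is not reported here. Members and lists were chosen with earlier results of these data known. Alternatives were DESeq2 1.42.0, limma-voom (limma 3.58.1), other scalings and filters, all 10 libraries, a batch term, and leaving out each library. Those that combine leaving out W4 with another change were chosen after seeing the data.

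Depth was 15512212 to 38160436 gene counts per library. The chi-square per gene between libraries of the same group was 421 to 431 in the pairs with W4 and 4.48 to 48.2 in the other pairs. None was thus a copy of another library of its group. Pairs across groups were not included. The fits were tested on simulated counts that had the spread of the rd10 libraries within batches. That test does not cover W4 or the spread between batches. For rd10 HAL against rd10 DMSO, 4% of 1.2-fold and 90% of 1.5-fold changes were recovered over genes. Over transcripts, 6% of 2-fold and 28% of 4-fold changes were recovered, so most such changes in single transcripts would be missed. For rd10 DMSO against WT these 4 shares were 20%, 88%, 16% and 42%.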

Additional observations from a re-analysis of the deposited data

Results flagged for a closer look

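Among the 4 WT libraries, 14 values were examined for a library that stands apart by Dixon's ratio of the gap to the range, and 9 values passed the 95% critical value for 4 samples. Chance alone gives about 1 in 20 for independent values, but the 14 values share the same 4 libraries and partly the same genes. In 7 of the 9 values that passed, the library labelled WT W4 was the extreme. It was the lowest in CPM of Pde6a (ratio 0.895), Pde6b (0.944), Pde6g (0.978) and Pde6d (0.850). It was also the lowest in Pde6b relative to the rod reference (0.906), in Pde6b over Pde6a (0.844) and in Pde6b over Pde6g (0.915). W4 had 3.32% of the mean Pde6b CPM of W1 to W3, below the 8.47% of the rd10 mean, so its label and its PDE6 values go against each other and the label was not changed.

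The other 2 values had W3 as the highest, Pde6h relative to the cone reference (0.833) and Pde6a over Pde6g (0.865).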

How the results depend on the processing

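No paired analysis was possible because the labels give no replicate number that is shared between groups as a pair, and the set tags in the titles are not shared between WT and rd10. The calls against WT depended on W4. Leaving out 1 library gave 0 to 5 called members in rd10 DMSO against WT, 0 to 5 in rd10 HAL against WT, 2 to 3 between batches and 0 to 11 called member transcripts in rd10 DMSO against WT. It gave 0 to 3 members that passed relative to the reference genes and 0 to 1 ratios. Over all genes the same fits called 0 to 7280, 0 to 8408 and 91 to 2638 genes in the first 3 comparisons. The highest member counts came without W4, except that 3 members stayed called between batches unless D3 was left out. DESeq2 called 2 members in rd10 DMSO and 4 in rd10 HAL against WT, where it called 589 and 2221 genes in all. In both comparisons without W4, library size only called 6 members and DESeq2, limma-voom and batch 1 alone called 5 each. Those fits called 7440, 7336, 7388 and 8460 genes in all for rd10 DMSO and 8414, 8171, 8421 and 7625 for rd10 HAL, so most genes were called in each. In batch 1 the halofantrine arm is H1 alone, assumed to vary like the WT libraries. With all 10 libraries, where W4 enters the estimate of spread, 0 members were called between batches. With the median of the reference genes and no W4, 3 members passed.

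Signs turned as follows. Pde6h in rd10 DMSO against WT was 0.11 with library size only and 0.16 with that and no W4, and in rd10 HAL against WT it was -0.11 in batch 1 without W4, where H1 is the only halofantrine library, and -0.031 to 0.11 with 1 library left out. Under halofantrine the batch term gave -0.25, -0.27 and -0.22 for Pde6a, Pde6b and Pde6g. Leaving out 1 library there gave -0.12 to 0.68 for Pde6a, -0.27 to 0.79 for Pde6b, -0.13 to 0.68 for Pde6g and -0.017 to 0.066 for Pde6d. Pde6c between batches ran from -0.039 to 0.13. By the median of the reference genes, rd10 against WT was 0.0083 for Pde6b, 0.17 for Pde6g and 0.0031 for Pde6h, and 0.28 for Pde6g and 0.036 for Pde6h without W4. Under halofantrine, Pde6b relative to its reference ran from -0.19 to 0.0006, and the log2 ratios from -0.12 to 0.12 (Pde6b over Pde6a), -0.15 to 0.10 (Pde6b over Pde6g) and -0.067 to 0.052 (Pde6a over Pde6g) with 1 library left out. In batch 1 alone the first 2 ratios were -0.011 and -0.15, and Pde6g relative to its reference was 0.022. The cause of these turns was not tested.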
